A study of Mus musculus with 5 samples.

Results

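The cells described here are the fibro-adipogenic progenitors (FAPs) of mouse shin muscle 2 days after injury with notexin, a phospholipase from snake venom that kills myofibres. They were taken as every barcode that the authors' annotation names FAPs in the day 2 table, which gave 667 of 4903 labelled day 2 cells, or 13.6% (exact binomial interval 12.7 to 14.6%). The series counted mRNA molecules (unique molecular identifiers, UMIs) in single live cells of the tibialis anterior at days 0, 2, 5 and 7. Muscles were digested, red cells were lysed, and live cells were enriched by flow sorting with calcein-AM and propidium iodide before 10x Genomics 3' libraries were made. All mice were C57Bl/6. The day 2 mice were female and 7 months old, the uninjured (day 0) and day 5 mice were female and 4 months old, and the day 7 mice were male and 4 months old. Day 2 thus differed from every other day in age as well as in time, and from day 7 also in sex, and these cannot be told apart in comparisons of day 2 with those days. Each day is 1 matrix, the number of animals behind it is not given in the sources used here, and no comparison below has a replicate or a test. Intervals cover counting error only.

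FAPs are mesenchymal cells that lie between muscle fibres and carry the receptor PDGFRA. After injury they divide, secrete matrix and signals that act on muscle stem cells and on incoming leukocytes, and are later cleared. When signals are disturbed they can become fat cells or scar-forming fibroblasts, hence the name.

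The label matched its markers. The 5 genes given for these cells, given as cpm, a gene's UMIs per 1000000 UMIs of the label, were each higher in FAPs than in every other day 2 label. Pdgfra, the PDGF receptor that defines the lineage (mm10 chromosome 5, 75152292 to 75198215), stood at 222 cpm in FAPs and at 2.60 in the Macrophages/APCs label, the next highest (log2 ratio 6.42, 95% counting interval 5.61 to 7.37). Col1a1, a chain of type I collagen (chromosome 11, 94936224 to 94953042), stood at 4848 and 59.7 in the MuSCs and progenitors label (log2 ratio 6.34, 95% counting interval 6.07 to 6.64). Both separated FAPs from the other labels by 85-fold and 81-fold. Timp1, a metalloprotease inhibitor (chromosome X, 20870166 to 20874735), was least particular, at 889.8 against 224 in the MuSCs and progenitors label (log2 ratio 1.99, 95% counting interval 1.84 to 2.14). Cthrc1, a secreted protein of injured and remodelling matrix (chromosome 15, 39076932 to 39087121), stood at 391 against 15.2 in the Endothelial label (log2 ratio 4.68, 95% counting interval 3.70 to 5.89). Hp, the haemoglobin-binding acute-phase protein haptoglobin (chromosome 8, 109575128 to 109579172), stood at 122 against 9.32 in the Macrophages/APCs label (log2 ratio 3.71, 95% counting interval 3.27 to 4.19).

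The 5 markers were not spread alike over the cells. With each cell thinned to 3000 UMIs, Col1a1 had a UMI in 99.3% of FAPs, Timp1 in 67.9%, Pdgfra in 45.6%, Cthrc1 in 41.5% and Hp in 13.6% (91 cells). In the Immune label the shares of these genes at the same depth were 8.60, 6.99, 0.529, 1.53 and 1.23%. Median depths before thinning were 12321 UMIs in FAPs and 9665 in the Immune label, and without thinning the FAP shares were 100, 91.3, 83.8, 65.5 and 27.3%. The fewest cells that held 50% of the Col1a1 UMIs numbered 160, against 19 for Hp. Hp was thus carried by a small share of the label at a high level per cell, up to 19 UMIs in 3000.

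**Figure D1:**
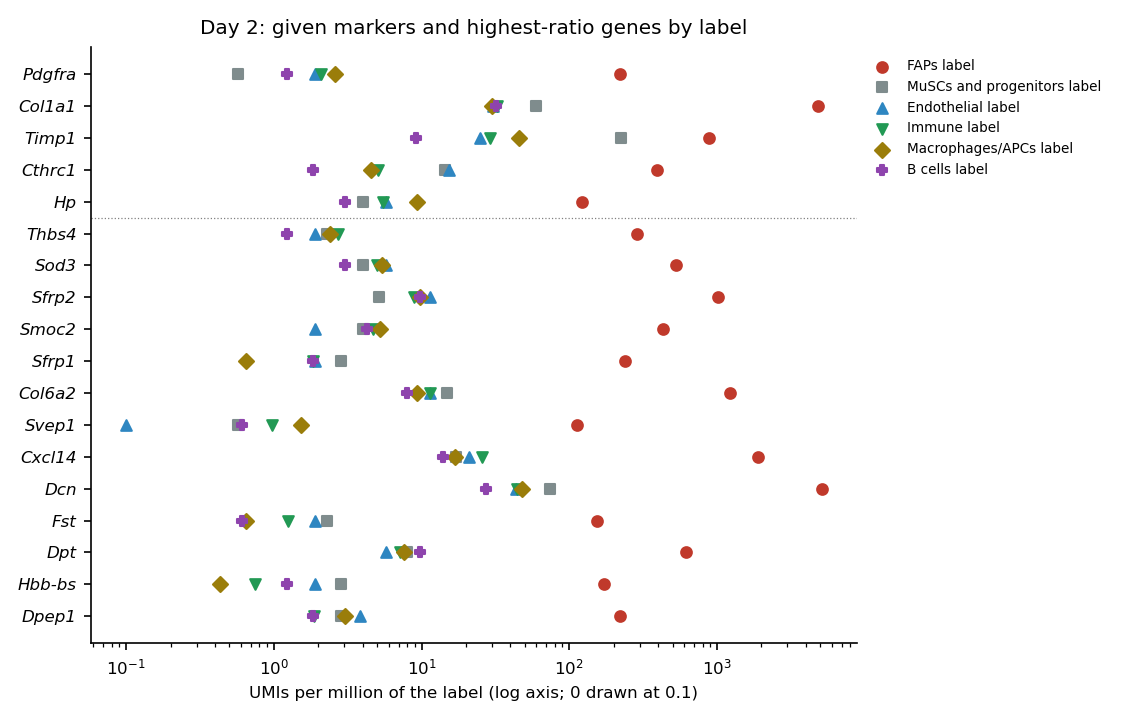
Level of the 5 given markers (above the dotted line) and of the other genes with the largest ratio to the next label, in cpm on a log axis, for the 6 day 2 labels (1 point each; a level of 0 is drawn at 0.1). FAPs stand to the right of all other labels for every gene, with Timp1 closest to another label, at 889.8 against 224 cpm.

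Genes of other cell types were low in FAPs but not all at 0. The 14 macrophage markers summed to 3099 cpm in FAPs against 43532 in the Immune label, with none at 0. Lyz2, a lysozyme of myeloid cells, stood at 1945 cpm in FAPs and 27627 in the Immune label. Per cell, these markers made up a median of 0.195% of a FAP's UMIs and 4.03% of an Immune cell's, and 26 FAPs reached 1%. The 8 endothelial markers summed to 41.3 cpm in FAPs, the 8 muscle stem cell and myoblast markers to 35.8, with 2 at 0, and the 8 mature muscle markers to 22.2. The 7 tenocyte markers summed to 399 cpm and the 4 measured globin and red cell markers to 293, both from few cells as described below. Among the labels used for comparison, the one called B cells had Cd79a at 0 and H2-Aa, an antigen-presentation gene, at 16664 cpm, so its markers go against its name. Day 2 shared 40, 9 and 35 cell barcodes with the day 0, 5 and 7 matrices. Depth per label ran from a median of 6688 UMIs (Endothelial, 58 cells) to 34387 (MuSCs and progenitors, 58 cells).

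The genes with the largest ratios to the other labels encode matrix proteins, Wnt and activin antagonists, a chemokine and proteins of the cell surface. Of 13698 genes with at least 20 UMIs at day 2, 1251 (9.13%) were at least 2-fold higher in FAPs than in the highest other label, and the median log2 ratio over all of them was -0.85. The labels were made from these same cells, so the ratios describe the label and test nothing. Apart from Pdgfra and Col1a1, the genes with the largest ratios at 100 cpm or more included Sod3, which encodes an extracellular superoxide dismutase, at 527 cpm (log2 ratio 6.53, 95% counting interval 4.98 to 8.81). Sfrp2 and Sfrp1, secreted frizzled-related proteins that bind Wnts, stood at 1019 and 238 cpm (log2 ratios 6.48 and 6.37). Fst, the activin and myostatin antagonist follistatin, stood at 154 cpm (6.07). These antagonists were near 0 elsewhere, with no other label above 11.4 cpm for any of the 3.

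Matrix and surface genes filled most of the other places. Dcn, the collagen-binding proteoglycan decorin, stood at 5130.1 cpm (6.10), Col6a2 at 1219 (6.35), the basement membrane-associated Smoc2 at 432 (6.38), Dpt (dermatopontin) at 618 (5.98) and Svep1, a large adhesion protein, at 113 (6.22). Cxcl14, a chemokine, reached 1881 cpm (6.19), and Dpep1, a membrane dipeptidase, 219 (5.85). The values in brackets are log2 ratios to the highest other label. The fewest cells that held 50% of a gene's UMIs ran from 55 (Cxcl14) to 172 (Col6a2), so none of these genes rested on a handful of cells. The same was not true of Thbs4 and Hbb-bs, which also met the rule. Thbs4, a thrombospondin of tendon, had the largest ratio of all (6.72), but 9 cells held 60.05% of its UMIs, and without them its level went from 285 to 116 cpm and, with the 2 globin cells also left out, its log2 ratio was 5.42. Hbb-bs, an adult beta globin, came almost wholly from 2 cells with 859 and 719 UMIs, and its log2 ratio went from 5.91 to -1.70 without them.

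Most matrix genes measured were highest in FAPs. Of the collagen list, 14 of 18 genes were at least 2-fold above every other label (median log2 ratio 4.85). Over all genes tested the share was 9.13%, to be set beside the counts of the other lists too. Col3a1, a fibrillar collagen of early repair tissue, stood at 9115 cpm (5.16), and Col6a1 at 1165 (5.74). The 4 exceptions were Col4a1, Col4a2, Col15a1 and Col18a1, basement membrane chains that were higher in the Endothelial label. Of the enzymes and chaperones that fold and cross-link collagen, 16 of 18 were higher (median 3.20), among them Loxl2 at 137 cpm (5.16), the propeptidase Adamts2 at 218 (5.40) and Serpinh1, the collagen chaperone HSP47, at 2426 (2.19). All 9 small leucine-rich proteoglycans were higher (median 5.40), though Omd and Fmod had UMIs in 1.35% and 3.45% of thinned cells and Fmod came mainly from the 9 cells above. Of the matricellular and glycoprotein list, 17 of 23 were higher, led by Wisp2 (180.3 cpm, 5.56), Postn or periostin (822, 5.43), Tnfaip6 (234, 5.04) and Mfap5 (1561, 5.02). Sparc, the most abundant of that list at 7922 cpm, was also high in the Endothelial label at 3579.6 cpm.

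Of the list of matrix proteases and protease inhibitors, 13 of 20 were at least 2-fold higher in FAPs (median 2.39), beside 9.13% of all genes. Mmp2, a gelatinase, stood at 460.1 cpm (4.46), the membrane protease Mmp14 at 259 (3.63) and the aggrecanase Adamts5 at 154 (3.75). Mmp3, or stromelysin, stood at 82.4 cpm (5.44), with 48.7% of its UMIs in its 10 highest cells. Timp3, Timp4 and Adamts1 were at least 2-fold higher in the Endothelial label than in FAPs. The counts depend on the scale: on means of the authors' log values, 10 of the 18 collagens, 7 of the 18 folding and cross-linking genes, 6 of the 9 proteoglycans, 9 of the 23 matricellular genes and 4 of the 20 proteases and inhibitors reached 2-fold. On that scale 124 of all 13698 genes did, the number to set beside the counts on log means here and below.

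FAPs also carried a set of inflammatory signals. Of the acute-phase and complement genes measured, 14 of 15 were at least 2-fold above every other label (median 3.71), beside 9.13% of all genes. But on means of the authors' log values 4 of 15 were (median 0.43), beside 124 of all 13698 genes. Serping1, the C1 inhibitor, stood at 1192 cpm (5.12), complement C3 at 401 (5.24), Serpina3n at 231 (5.75), the pentraxin Ptx3 at 226 (5.30) and C1ra at 131 (5.35). Of the chemokines and cytokines, 13 of 23 were higher (median 1.08), and 5 on the log means. Il33, an alarmin that acts on regulatory T cells, stood at 212 cpm (5.53). The neutrophil attractants Cxcl1 and Cxcl5 stood at 719 (1.82) and 29.6 (5.60), and the monocyte attractants Ccl7 and Ccl2 at 756 (2.12) and 551 (1.01). Ccl19 stood at 11.1 cpm, with UMIs in 3.15% of thinned cells. Il6, which acts on muscle stem cells, was not called, at a log2 ratio of 0.43 to the Endothelial label, and neither was Cxcl12 (0.38). Cxcl2, Cxcl16 and Csf3 were at least 2-fold higher in myeloid labels.

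Among growth factors and their modulators, 19 of 34 were at least 2-fold higher in FAPs (median 2.33), and 5 on the log means. Over all 13698 genes tested, 9.13% were called, and 124 genes on the log means. Beside Sfrp1, Sfrp2 and Fst this held for Fgf7 at 44.7 cpm (5.28) and, at low levels, Fgf10 at 4.24 and the activin subunit Inhba at 9.23 (5.53). Igfbp7, the most abundant of the list at 3274 cpm, was higher in the Endothelial label (-1.16). Of the surface receptors, 9 of 26 were called, including the protease Fap (137 cpm, 4.90), Thy1 (242, 4.40) and Egfr (70.04, 2.23). Ly6a, the SCA-1 antigen often used to sort FAPs, and Cd34 stood at 1527 and 352 cpm and were higher in the Endothelial label (-0.53 and -0.57). Of 28 endoplasmic reticulum folding and secretion genes, 7 were called, led by the retrieval receptor Kdelr3 at 227 cpm (4.09) and by Creb3l1, a transcription factor for collagen secretion, at 66.8 (2.32). Of the genes known from resting FAPs, 17 of 20 were still at least 2-fold above every other day 2 label (median 3.85; 7 of 20 on the log means), with Mgp at 2484 cpm (4.26) and Myoc at 140.3 (5.61).

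None of the 30 S-phase, 42 G2/M, 19 cyclin and inhibitor, 22 ribosome biogenesis, 16 glycolysis, 13 interferon, 21 actin and 10 adipogenic genes measured was at least 2-fold above every other label. Over all genes tested, 9.13% were. For all 30 S-phase, 39 of 42 G2/M and all 22 ribosome biogenesis genes the highest other label was MuSCs and progenitors. Npm1, a nucleolar protein, stood at 815 cpm in FAPs and 3021 in the MuSCs and progenitors label, and Cdk4 at 199 and 580.3 in the MuSCs and progenitors label. Against all other day 2 cells pooled, 3 of the 42 G2/M genes and 6 of the 21 actin genes were called, beside 3585 of all 13698 genes. Vim, which encodes the intermediate filament vimentin, was shared with that label at 5581 and 4742 cpm. Of the 18 genes linked to stress during cell dissociation, immediate early genes and heat-shock chaperones among them, Egr1 alone was called (855 cpm, 1.57). Fos and Jun stood at 1173 and 645 cpm.

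**Figure D2:**
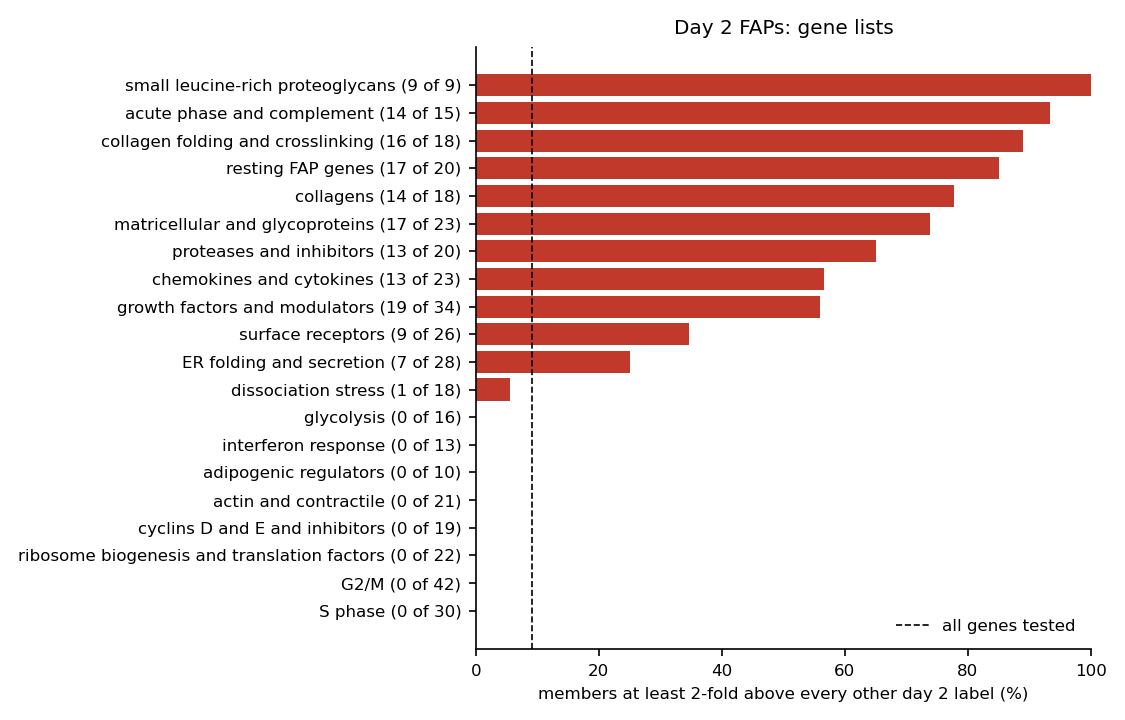
Share of each gene list, in %, at least 2-fold higher in day 2 FAPs than in every other day 2 label (bars, with counts in the labels), beside the share over all genes tested (dashed line, 9.13%). Matrix, complement and signalling lists lie far to the right of the line, while 8 lists stand at 0 (S phase, G2/M, cyclins, ribosome biogenesis, glycolysis, interferon response, actin and adipogenic).

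Set beside FAPs of the other days, day 2 FAPs had the highest levels of Sfrp2, Timp1 and division genes and the lowest levels of Pi16, Gsn and other genes of uninjured FAPs. Day 0, 2, 5 and 7 FAPs numbered 3516, 667, 828 and 1889 cells, the last from 2 labels, with median depths of 4452, 12321, 2785, and 7669 and 5056 UMIs. Of 13830 genes tested, 412 (2.98%) were at least 2-fold higher at day 2 than on each of the other days, and 416 (3.01%) at least 2-fold lower. With every cell thinned to 1000 UMIs these counts were 212 and 626.

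The ranking took genes at 100 cpm or more at day 2 and at least as high in FAPs as in any other day 2 label. By that ranking the gene that stood out most was Sfrp2. Its levels at days 0, 2, 5 and 7 were 39.3, 1019, 118 and 77.3 cpm, so that day 2 exceeded the nearest other day by a log2 ratio of 3.11. At 1000 UMIs per cell it had a UMI in 2.45, 37.2, 5.80 and 5.45% of FAPs. Sfrp1 was also highest at day 2, at 23.9, 238, 127 and 116 cpm, but was less than 2-fold above day 5. Timp1 stood at 45.2, 889.8, 295 and 379 cpm and was detected in 3.61, 41.1, 13.8 and 23.7% of thinned cells. The other given markers did not peak at day 2 or did so by less than 2-fold: Hp stood at 0.490, 122, 17.5 and 91.7 cpm, Cthrc1 at 7.04, 391, 347 and 966, Pdgfra at 231, 222, 319 and 176 and Col1a1 at 2008, 4848, 8706 and 14062. The day 7 level of Hp came from the label FAPs (activated), at 523 cpm against 17.8 in the other day 7 FAP label.

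Other genes named by the rule were also highest at day 2. Sod3 stood at 214, 527, 188 and 135 cpm at days 0, 2, 5 and 7. Aldh1a2, a retinoic acid-producing enzyme, stood at 15.7, 153, 55.2 and 77.4 and was just under 2-fold above day 7. Cxcl12, the ligand of CXCR4, stood at 501, 1157, 501 and 609 and did not reach 2-fold over day 7. Vim stood at 2655, 5581, 1849.8 and 2706, Nt5dc2 at 1.47, 144, 5.14 and 37.9 and Sned1, a matrix protein, at 32.1, 211, 58.6 and 57.1. Gm8730 also ranked high at 718, 2984, 662 and 369 cpm, but it is annotated as a processed pseudogene, and how reads were shared with its parent gene is not known. Spp1, or osteopontin, met the 2-fold rule at 5.26, 611, 22.97 and 168 cpm, but its day 2 level in the Immune label was 7180.1 cpm. The median FAP to Immune ratio of Lyz2, C1qa, C1qb and C1qc at day 2 was 5.55%, and its part in the Spp1 level was not tested. Il11 (at 2.94, 31.3, 5.14 and 2.22 cpm) met the rule as well, with 81.2% of its day 2 UMIs in 1 cell.

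The 14 macrophage markers were also highest in FAPs of day 2, summing to 78.3, 3099, 373 and 1615 cpm at days 0, 2, 5 and 7. Without the 67 day 2 FAPs highest in these markers, 341 genes were higher at day 2. G2/M genes were, by summed UMIs, the list that was highest at day 2 almost as a whole. Of 42 G2/M genes, 39 were at least 2-fold above every other day, beside 2.98% of all genes, with the exceptions of Smc4, Hmgb2 and Hjurp. On means of the authors' log values none of the 42 reached 2-fold (0 higher). That scale adds a constant to the scaled counts before the log. Genes at levels like those that follow cannot reach 2-fold on it, even if absent on every other day. The call is thus made for summed UMIs only, and the log means cannot decide it. Ube2c, a ubiquitin-conjugating enzyme of mitotic exit, stood at 1.71, 43.98, 3.77 and 2.15 cpm, Birc5 (survivin) at 1.41, 71.1, 1.03 and 4.92 and Mki67, the proliferation antigen, at 0.734, 14.99, 0.343 and 0.971. Of 29 S-phase genes 7 met the rule, among them Rrm2 at 2.94, 21.3, 4.11 and 5.68 cpm and Gins2 at 3.79, 25.95, 5.14 and 10.95. In cells thinned to 1000 UMIs the G2/M count was 7 of 11. At that depth 8.995% of day 2 FAPs (interval 6.93 to 11.4%) had UMIs of at least 2 G2/M genes, against 0.711, 1.09 and 1.43% at days 0, 5 and 7. For at least 2 S-phase genes the shares were closer, at 5.46, 8.55, 6.16 and 3.92% in the order of days.

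On the low side, 5 of the 20 resting FAP genes were at least 2-fold below every other day, beside 3.01% of all genes, and 2 on the log means. Pi16, which marks a stem-like FAP subset, stood at 2707, 126, 1253 and 990.3 cpm and had a UMI in 61.4, 6.30, 47.1 and 26.5% of cells at 1000 UMIs. Gsn, which encodes the actin-severing gelsolin, stood at 44811, 2307, 10608 and 5082 cpm, Smoc2 at 2168, 432, 1646 and 1220.2, Apod (apolipoprotein D) at 1531, 384, 1183 and 1672 and the methyltransferase Inmt at 172, 3.47, 67.9 and 32.5. Other genes lowest at day 2 were Ace (angiotensin-converting enzyme, 203, 48.4, 237 and 206), the phospholipase Pla1a (258, 29.1, 125 and 118) and Hmcn2 (hemicentin, 155, 26.9, 321 and 101). Igfbp5, an IGF-binding protein, stood at 1888, 214, 1190.5 and 583 cpm, and Fos at 2785, 1173, 2727 and 2798. The other 5 genes named by the rule, Pvalb, Tnnc2, Myl1, Acta1 and Mylpf, encode proteins of the muscle fibre. The 8 mature muscle markers summed to 209, 22.2, 582 and 485 cpm in FAPs of days 0, 2, 5 and 7, and their source was not tested.

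Calls in the other lists were in both directions. No collagen or collagen-processing gene was at least 2-fold above or below every other day. Of the 34 growth factors and modulators, 3 were higher (Sfrp2, Fgf10 and Nrg1) and 4 lower (Igf2, Igfbp3, Igfbp5 and Dkk3). Over all genes tested the shares were 2.98% higher and 3.01% lower. Igfbp3 stood at 106, 21.8, 70.3 and 67.5 cpm and Igf2, a fetal-type growth factor, at 14.9, 4.78, 209 and 144. Of the 16 acute-phase and complement genes, 3 were lower at day 2 (among them Saa1 and C1s1), beside 3.01% of all genes. Most of the list was nevertheless particular to FAPs among the day 2 labels. C1s1, a complement protease, stood at 443, 207, 617 and 461 cpm. Of the 18 cyclins, partners and inhibitors measured, 2 were lower at day 2, beside 3.01% of all genes. They were the kinase inhibitors Cdkn1c (253, 96.97, 442 and 1249 cpm) and Cdkn1b (42.04, 15.4, 82.3 and 33.4). Of the 10 adipogenic genes, 3 were higher, beside 2.98% of all genes. On the log means 0 were, but genes at the levels of these 3 cannot reach 2-fold on that scale. Pparg, the master regulator of fat cells, stood at 2.75, 12.9, 1.37 and 4.02 cpm and Cebpa at 17.3, 63.2, 10.97 and 18.7, but in another day 2 label these reached 41.9 and 235 cpm, and for the fatty acid transporter Cd36 (22.5, 57.4, 10.3 and 10.5 cpm) another label reached 1494. The part of other cells' RNA in these 3 levels was not tested. Il1rl1, the IL-33 receptor, stood at 0.245, 25.6, 9.94 and 3.19 cpm, with 50% of its day 2 UMIs in 2 cells.

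**Figure D3:**
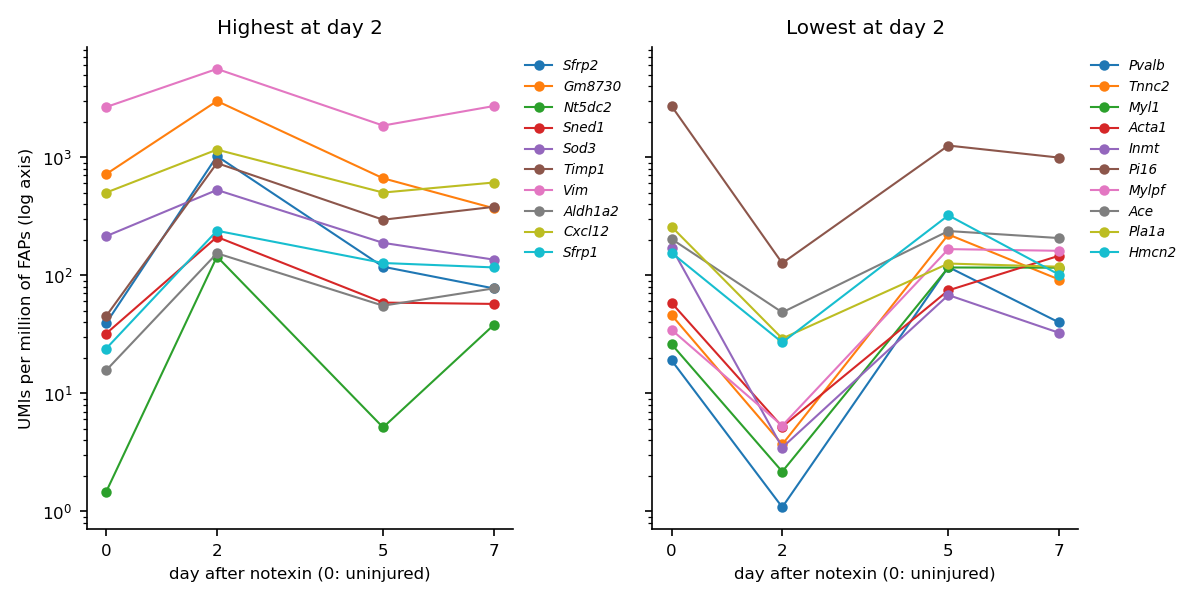
Level of the 10 genes highest and the 10 genes lowest at day 2 by the rule for named genes, in cpm over all FAPs of a day (log axis), against the day after notexin; each point is 1 library matrix. Sfrp2 and Timp1 peak at day 2 in the left panel, and Pi16 and 5 muscle fibre genes have their minimum there in the right panel.

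Within the label, FAPs were split by division genes. Each cell was thinned to 3000 UMIs, and the number of S-phase and G2/M list genes with a UMI was counted. The G2/M range (at least 3 G2/M genes) held 90 cells and the S range (at least 3 S-phase genes and fewer than 3 G2/M genes) 39. The low range (at most 1 gene of both lists together) held 338, and 200 lay between. The first 2 ranges together, called dividing FAPs here, made up 19.3% of the label (interval 16.4 to 22.5%). The name rests on these gene counts, and whether the cells of the S range divide was not tested. These are ranges of a score and not separate types: 21 cells had exactly 3 G2/M genes and 51 had 2. Among cells with fewer than 3 G2/M genes, 21 had exactly 3 S-phase genes and 93 had 2. A group of 44 cells had 8 or more G2/M genes, up to 22. The share moves with the depth at which genes are counted, from 14.7% at 2000 UMIs to 36.1% at 5000. Median depth was 14110 UMIs in dividing and 12310 in low-range cells, and the median macrophage marker share was 0.191 and 0.196%.

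**Figure D4:**
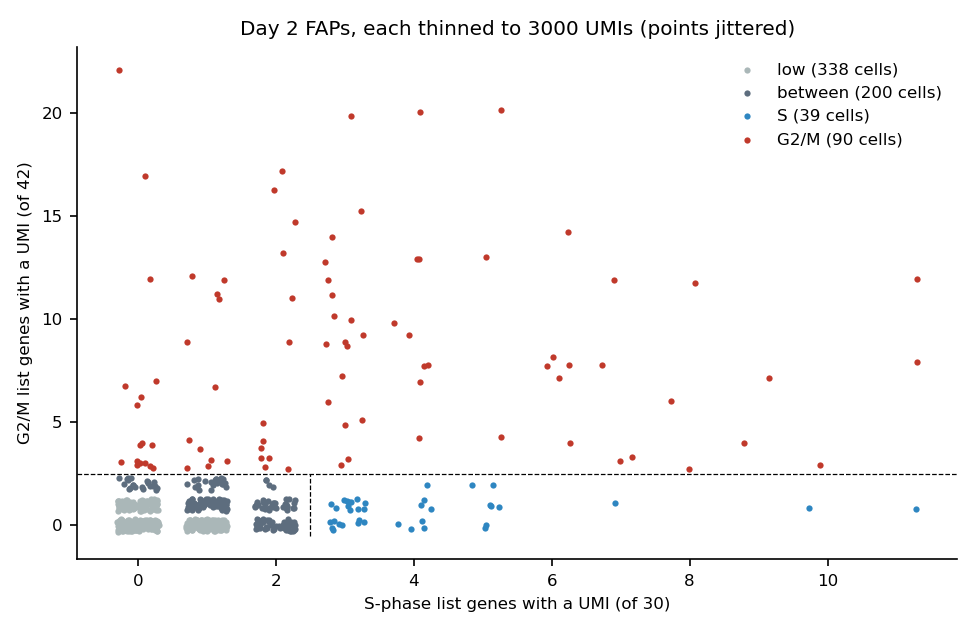
Number of S-phase list genes (x axis, of 30) and of G2/M list genes (y axis, of 42) with a UMI in each of the 667 day 2 FAPs after thinning to 3000 UMIs; points are jittered, colours give the range and dashed lines the limits. Cells form a continuous field near the origin, and 44 cells with 8 or more G2/M genes extend upwards.

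Promoters of G2/M list genes hold 2 short motifs more often than promoters at large, and examples are shown because most genes of that list were highest together at day 2. Sequences are the 250 bases before the RefSeq transcription start, 5′ to 3′ on the gene's strand (GRCm38.p6). Capitals mark matches on either strand to CCAAT, the box bound by NF-Y, or to TTTGAA, a cell cycle genes homology region through which the DREAM complex acts. The examples from the G2/M list are Cdc20, the activator of the anaphase-promoting complex (chr4:118437344-118437593, minus strand), and Ube2c (chr2:164769679-164769928, plus strand), picked after the matches were seen because both motifs are present, and not by the rule for named genes. Birc5 and Tk1, looked at first, held neither in these bases. Tubb4b, which is in neither list, held both and is not shown. Ccdc34 (chr2:110017567-110017816, plus strand) and 2810417H13Rik, which RefSeq names Pclaf (chr9:65890073-65890322, plus strand), lie outside both lists, were among the genes highest in dividing FAPs and were likewise picked after their matches were seen.
Cdc20: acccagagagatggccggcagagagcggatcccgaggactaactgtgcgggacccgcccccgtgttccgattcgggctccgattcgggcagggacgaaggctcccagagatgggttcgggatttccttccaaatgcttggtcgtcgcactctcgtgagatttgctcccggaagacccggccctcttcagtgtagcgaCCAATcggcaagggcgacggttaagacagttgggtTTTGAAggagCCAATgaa
Ube2c: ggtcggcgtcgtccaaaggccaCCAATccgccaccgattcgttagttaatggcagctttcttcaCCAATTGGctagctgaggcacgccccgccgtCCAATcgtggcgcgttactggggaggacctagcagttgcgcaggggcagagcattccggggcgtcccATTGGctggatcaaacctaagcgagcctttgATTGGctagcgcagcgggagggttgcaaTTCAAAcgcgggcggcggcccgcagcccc
Ccdc34: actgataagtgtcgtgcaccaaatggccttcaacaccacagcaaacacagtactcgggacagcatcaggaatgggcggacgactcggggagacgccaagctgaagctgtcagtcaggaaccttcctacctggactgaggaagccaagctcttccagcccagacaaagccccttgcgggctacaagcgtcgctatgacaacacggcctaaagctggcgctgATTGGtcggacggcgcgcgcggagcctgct
2810417H13Rik: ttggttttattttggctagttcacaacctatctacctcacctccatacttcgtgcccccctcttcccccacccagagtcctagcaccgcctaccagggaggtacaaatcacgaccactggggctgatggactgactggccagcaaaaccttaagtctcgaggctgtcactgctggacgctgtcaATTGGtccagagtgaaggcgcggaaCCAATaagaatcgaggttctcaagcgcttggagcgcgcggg
Counted from the start site, the TTTGAA match began at position -18 in Cdc20 and at position -29 in Ube2c. In Ube2c 2 CCAAT matches on opposite strands overlap. Neither Ccdc34 nor 2810417H13Rik had TTTGAA in the bases shown.

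Over the whole table the motifs were counted in windows of 300 bases, from 250 before to 50 after the start, leaving out chromosome 18. TTTGAA was present in 27 of 40 windows of the 37 G2/M list genes with an entry (67.5%), in 15.4% of the 26 S-phase windows, and in 17.9% of all 32851 windows. CCAAT was present in 80.0, 69.2 and 37.4%, in that order. The E2F cores TTCCCGC or TTGGCGC were present in 12.5% of G2/M windows and in 13 of the 26 S-phase windows, against 6.81% of all. For genes outside both lists that were at least 2-fold higher in dividing FAPs (353 of 439 with an entry), the shares were 22.7% for TTTGAA, 47.4% for CCAAT and 26.1% for the E2F cores. For all genes tested in that comparison they were 11.7, 36.9 and 12.04%. The window mattered for TTTGAA: in the upstream 250 bases alone it was present in 32.5% of G2/M windows, against 15.99% of all, while CCAAT stayed at 80.0% against 33.8%. Both windows were counted, and the longer one is given first by a choice made after both shares were seen. For genes higher in dividing FAPs the E2F share in the shorter window was 17.3%, against 9.95% of tested genes. The AP-1 site TGANTCA was searched as well, in the genes at least 2-fold higher in FAPs than in every other label. It was present in 7.54% of their 300-base windows and in 7.81% of all, against 5.20% for the genes tested in dividing cells. A match is a description of the letters and not of binding.

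Dividing FAPs (129 cells) were then compared with the low range (338 cells) on genes outside both lists. Of 10564 genes with at least 20 UMIs, 439 (4.16%) were at least 2-fold higher and 350 (3.31%) at least 2-fold lower in dividing cells. Cells were grouped by correlated genes and belong to 1 library, so these ratios are descriptive too. The highest included further replication and mitosis genes. 2810417H13Rik, the PCNA-associated factor, stood at 262 against 8.26 cpm (log2 ratio 4.99, counting interval 4.51 to 5.51). Tk1, a thymidine kinase, stood at 127 against 7.81 (4.02) and Stmn1, which encodes the microtubule regulator stathmin, at 322 against 27.02 (3.58). Ccdc34 stood at 161 against 41.3 (1.96). Tnc, the matricellular protein tenascin C of early repair, was the one matrix gene among them, at 255 against 56.9 cpm (2.16, 1.94 to 2.38), with 50% of its UMIs in 11 cells. Hbb-bs, Hba-a1 and Car3 had larger ratios (9.26, 8.58 and 5.02), each from 1 or 2 cells.

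Genes lower in dividing FAPs included a cell cycle inhibitor, resting genes and Wnt antagonists. Cdkn1c, the inhibitor p57, stood at 32.02 against 123 cpm in dividing against low-range cells (-1.95, -2.34 to -1.58). Pi16 stood at 41.1 against 146 (-1.82, -2.17 to -1.50). Sfrp1 stood at 96.5 against 299 (-1.63) and Sfrp4, another member of the family, at 46.4 against 142 (-1.62), whereas Sfrp2 stood at 855 against 1127 (-0.40). Mfap4, a microfibril protein, stood at 80.8 against 199 (-1.30), Gas6, a ligand of TAM receptors, at 158 against 372 (-1.23) and Ctgf at 51.1 against 117 (-1.20). Several of these differences pass under 2-fold with other ranges. With ranges from 5000 UMIs the log2 ratio was -0.29 for Gas6 and -0.40 for Ctgf. With a limit of 2 genes it was -0.69 for Pi16, -0.84 for Sfrp1, -0.96 for Sfrp4 and -0.91 for Mfap4, whereas Cdkn1c stayed at -1.17. On thinned counts it was -0.80 for Sfrp4. Mmp13 had the lowest ratio (-5.36), but 84.5% of its UMIs came from 1 cell. Of the given markers, Timp1 stood at 1312 against 816 cpm (0.69), Cthrc1 at 518 against 369 (0.49), Hp at 107 against 132 (-0.31), Pdgfra at 183 against 239 (-0.39) and Col1a1 at 4600.0 against 4939 (-0.10), none of them 2-fold apart.

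**Figure D5:**
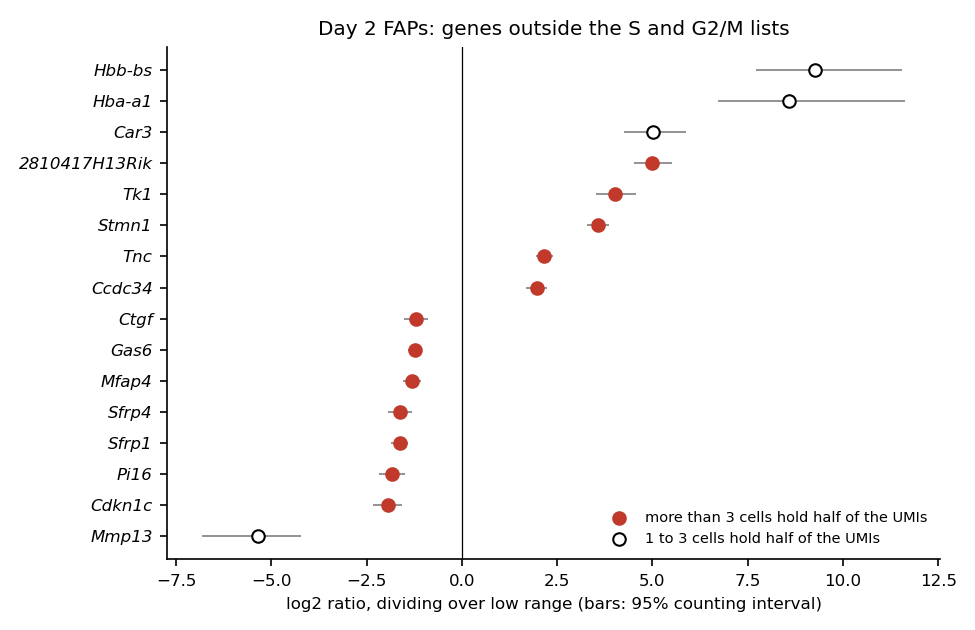
Log2 ratio of dividing over low-range FAPs (points) with its 95% counting interval (bars) for the 8 highest and 8 lowest genes outside the S-phase and G2/M lists; open points mark genes with 50% of their UMIs in 1 to 3 cells. The 3 largest ratios and the smallest are open points, and the filled ones run from 4.99 (2810417H13Rik) to -1.95 (Cdkn1c).

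In dividing against low-range FAPs, the median log2 ratio over all genes tested was 0.03. It was 0.61 for ribosome biogenesis and translation factors (3 of 21 at least 2-fold higher, beside 4.16% of all genes: Nop56, Dkc1 and Nolc1) and 0.61 for cyclins and their partners and inhibitors (3 of 16 higher: Cdk6, Cdkn2c and E2f1, and Cdkn1c lower). With ranges from 5000 UMIs, 0 of 21 ribosome biogenesis genes were called, and with a limit of 2 genes 1 of 22. The median was 0.47 for the 21 actin and contractile genes, where Acta2, smooth muscle actin, stood at 151 against 52.7 cpm and Tpm2, a tropomyosin, at 172 against 71.0. Of Acta2, 14 cells held 50% of the UMIs. No collagen or collagen-processing gene of the 36 measured was 2-fold apart in either direction (medians -0.12 and 0.05). Over all genes tested, 3.31% were at least 2-fold lower, the share to set beside the counts of lower genes that follow. Medians were negative for resting FAP genes (-0.68; 3 of 20 lower: Pi16, Inmt and Penk), acute-phase and complement genes (-0.66; 3 of 13 lower, among them Ptx3 and Saa3) and small leucine-rich proteoglycans (-0.65; 2 of 9 lower: Fmod and Podn). For Fmod, 81.7% of the UMIs lay in the 9 cells with tendon genes described below. Only 2 of those cells were dividing and 4 were in the low range. Of the 22 chemokines and cytokines 4 were lower in dividing cells, beside 3.31% of all genes (Cxcl9, Cxcl13, Lif and Il11, the last from 1 cell). Cxcl10, an interferon-induced chemokine, was higher at 100.4 against 37.96 cpm (1.40). Of the 30 growth factors and modulators 3 were lower (Bmp4, Sfrp1 and Sfrp4), beside the same 3.31%. Cdkn2c, the inhibitor p18, stood at 48.7 against 8.26 cpm (2.56) and E2f1, a transcription factor of S-phase entry, at 34.4 against 13.8 (1.31).

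Variation among FAPs was also measured on genes outside both lists. In cells thinned to 3000 UMIs, the variance of counts over cells was compared with the mean, which are equal under counting noise alone. Over 3478 genes outside both lists with a mean of at least 0.1 UMIs the median ratio was 1.07, and 208 genes (5.98%) reached 2. That count is set by the depth, at 135 for 2000 and 343 for 5000 UMIs per cell. Of the genes highest in FAPs with the largest ratios, several were spread over many cells. Gsn had a ratio of 26.98 and 50% of its UMIs in 103 cells, and Mgp, matrix Gla protein, 19.8 and 78. Cxcl14 had 16.9 and 55, Apod 20.9 and 43, and the chemokine Ccl2 15.04 and 41. Acta2 had 20.5 and 14.

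The other genes at the top came from a handful of cells. With limits set after the values were seen (3 markers, 10 globin UMIs), 2 sets of cells were singled out. In 9 FAPs (1.35% of the label, interval 0.619 to 2.55%) at least 3 of 7 tenocyte markers had a UMI. The markers were Tnmd, Scx, Mkx, Fmod, Thbs4, Kera and Chad. These cells held 66.6% of all UMIs of these markers, with 81.7% of Fmod (fibromodulin), 80.2% of Tnmd (tenomodulin) and 56.1% of Comp. Fmod, Tnmd and Thbs4 helped to select the cells, so their values follow in part from the selection. Comp did not. Of the 9 cells, 2 were dividing and 4 in the low range. The same 9 cells held 95.7% of the UMIs of the collagenase Mmp13 and 81.6% of those of the cytokine Il11. Mmp13 had 454 and Il11 234 UMIs in their highest cells. The carbonic anhydrase Car3 had 227 of 244 UMIs in 1 cell. Globins had 1427 and 1256 UMIs in 2 cells and at most 2 in any other. Without the 9 tendon-gene cells and the 2 globin cells, the variance to mean ratio of Thbs4 went from 43.5 to 7.83 and that of Comp from 14.9 to 8.01. Fmod, Mmp13, Hbb-bs and Hba-a1 then no longer reached a mean of 0.1 UMIs.

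Hp and Cthrc1 lay in different neighbourhoods of genes. Over the 667 thinned cells of 1 library, the genes with the highest rank correlation with Hp were Cxcl12 (Spearman's rho 0.33), Emb, the adhesion molecule embigin (0.33), Igfbp4 (0.28), Efemp1 (0.25) and Sfrp2 (0.25). With Cthrc1 they were Aspn, the proteoglycan asporin (0.34), Mfap5 (0.33), Postn (0.31), Sparc (0.30) and Col1a1 (0.30). The values are low and are a description only. Between Hp and Cthrc1 rho was -0.16. Of the 91 cells with an Hp UMI, 21 (23.1%) also had a Cthrc1 UMI, against 44.4% of the cells without Hp. For Pi16 the same shares were 49.5 and 40.3%.

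Clustering the FAPs without the S-phase and G2/M genes gave 6 groups, numbered by size, whose leading genes describe them and are no finding. Group 1 (175 cells) was led by the cytokine and immediate early genes Il6, Cxcl2, Cxcl1 and Fosb, with Cxcl1 in 86.9% against 42.5% of thinned cells elsewhere. Group 2 (139) held both globin cells and was otherwise led by Hp, Ccl5, Angptl4, Acta2 and Sfrp2 (Sfrp2 in 83.5% against 54.4%). Of these, Ccl5 was detected in only 4.32% against 3.22% of cells and Acta2 in 14.4% against 10.8%. Group 3 (133) was led by Pi16, Sema3c and Igfbp5 (Pi16 in 31.6% against 9.18%), and group 4 (112, median 9805 UMIs) by Hmcn2, Sfrp4, Cdkn1c and Myoc (Myoc in 43.8% against 10.99%). Group 5 (69) held 56 of the 90 G2/M-range cells, 3 of the 39 S-range cells and 8 of the 9 tendon-gene cells. It was led by histone genes and by Mmp13, Il11, Tnmd and Thbs4, of which Mmp13 was detected in 2.90% against 0.669% of cells. Group 6 (39, median 18907 UMIs) was led by Car3, from 1 cell, and by Folr2, Pf4 and Lcp1, genes of macrophages, and its median macrophage marker share was 1.20% against 0.180 to 0.207% in the others. Whether these are doublets was not tested, and Col1a1 in group 6 was 2921 cpm. In groups 1 to 6, Hp stood at 167, 267, 34.6, 45.3, 10.5 and 134 cpm, Cthrc1 at 198, 247, 622, 565, 613 and 117, Pi16 at 16.5, 9.81, 443, 218, 5.67 and 33.9 and Gsn at 1319, 1671, 2589, 6406, 1133 and 1387. Group limits shifted with the order of normalization and gene filtering, and another order, run after the data were seen, also gave 6 groups, with 41.1% of dividing FAPs in 1 group against 45.7%. For comparison, Gsn in uninjured FAPs stood at 44811 cpm, above all 6 groups.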

How the data were processed

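UMI counts of each gene in each cell were deposited as 1 matrix a day, 4 in all, from 5 samples (both day 0 runs are in 1). The deposited normalized values are on a natural log scale (1 added to counts scaled to 10000 per cell, as recomputed from the raw matrices) and served in alternatives only. Cell type labels come from the deposited metadata, in which mitochondrial content is a fraction. Cell Ranger 2, Seurat 2.3.4, R 3.6.2 and build mm10 are named in the submitters' processing notes, without roles.

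UMIs were summed over the cells of a label, day or range and given as cpm (per 1000000 UMIs of the group). A log2 ratio carries a 95% interval from the exact binomial (Clopper-Pearson) split of both counts, with 0 replaced by a floor of 3 counts, and shares carry exact binomial intervals. All cover counting error only. Genes needed 20 UMIs over the groups compared, and called means at least 2-fold. References were day 2 labels with at least 50 cells. Cells were thinned with seed 1. Sub-clusters came from scanpy 1.11.5 (2000 variable genes, 20 components, 15 neighbours, Leiden resolution 0.5, igraph 0.11.9). Other steps used Python 3.11.15 with scipy 1.17.1, and the functions were tested on simulated data. Day 2 held 57723171 UMIs, of which 9208654 were in FAPs.

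Named genes were the 5 given markers and the 15 largest label ratios (at least 100 cpm and 50 UMIs). For each of the 20 lists they were the 4 largest ratios and the most abundant member. Across days they were the 10 highest and 10 lowest at day 2, at 100 cpm or more on the higher side. The 10 highest also had to be at least at the level of the highest other day 2 label. For dividing cells they were the 8 highest and 8 lowest, with at least 100 cpm and 50 UMIs on the higher side. These also had to reach 0.5 or more of the level of the highest other label. Added to these were the 12 with the largest variance to mean ratio and the 5 most like each of Hp and Cthrc1. Further list members were named where they met or missed a call, after their values were seen. Members and lists were chosen with earlier results of these data known. Orm2, A2m, Cfd, Grem1 and Cebpd of the lists were not found in the day 2 table, nor were some members of the marker lists, such as Pax5, Trbc2, Gp9 and Alas2. Results of some genes are not reported here. The 21 day 2 barcodes without a label were left out, 16 metadata columns (4 in each table) were not used, and no doublet caller was run. Promoters came from RefSeq (GRCm38.p6), and gene positions from GENCODE on the same build.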

Additional observations from a re-analysis of the deposited data

How the results depend on the processing

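Counts of genes moved with the scale and the count minimum. The authors' log values add a constant to the scaled counts, so genes at low levels in all groups cannot be 2-fold apart on the log means. The 1251 genes higher in FAPs than in every other label became 124 on means of the authors' log values, 3585 against all other day 2 cells pooled, 824 with at least 100 UMIs and 732 at 4-fold. The 412 genes higher and 416 lower at day 2 became 19 and 4 on the log means, 212 and 626 after thinning to 1000 UMIs, and 119 and 78 at 4-fold. The 439 genes higher in dividing FAPs became 292 with a range limit of 2 genes, 277 on thinned counts, 154 with at least 100 UMIs, 1450 with no minimum and 1259 at 1.5-fold. The 350 genes lower became 141 and 635 with range limits of 2 and 5 genes, 537 and 157 with ranges from 2000 and 5000 UMIs, 51 with at least 100 UMIs, 780 with no minimum and 1102 at 1.5-fold. The share of dividing FAPs (19.3%) was 39.9 and 11.2% with limits of 2 and 5 genes, and 14.7 and 36.1% with ranges from 2000 and 5000 UMIs. The 208 genes with a variance of at least 2 times the mean became 135 and 343 at those depths. Apart from the limits, thresholds and depths themselves, the cause of these shifts was not tested.

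Among the named genes, directions turned for 4, each with most of its UMIs in 1 or 2 cells. The log2 ratio of Hbb-bs to other labels became -0.019 on the log means and -1.70 without the 9 tendon-gene and 2 globin cells. With ranges from 5000 UMIs, the dividing ratios became -0.83 for Hba-a1, -1.01 for Hbb-bs and 2.16 for Mmp13, and with ranges from 2000 UMIs that of Car3 became -4.50. List medians near 0 in dividing cells also changed sign: that of the collagens from -0.12 to 0.01 with ranges from 2000 UMIs, that of collagen folding from 0.05 to -0.02 with a limit of 2 genes, and that of interferon genes from 0.29 to -0.30 on thinned counts. Leaving out the 67 FAPs highest in macrophage genes or the 11 cells moved none of the main counts by over 1.5 times. Subtracting free RNA and leaving out the B cells label were run for the label comparison alone, where 1251 genes became 1300 and 1292. Free RNA was not subtracted in the comparisons of days or of dividing cells. Leaving out the B cells label or the 11 cells, a set without any tenocyte marker and clusters normalized over all genes were added after the data were seen. Sub-clusters numbered 4 and 7 at resolutions 0.3 and 0.8. No paired analysis was possible because each injured day is 1 library and the columns of the day 0 runs cannot be told apart. Depth per cell limits what can be said of single cells: at 3000 UMIs, a gene at 100 cpm has a UMI in a minority of cells.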
